A study of Mus musculus with 6 samples.

Results

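The TRIM family was followed in sciatic nerve RNA at postnatal day 4, and was taken as every gene of the normalised expression table with a symbol made of Trim, a number and at most 1 letter. The table of 59485 genes held 65 such genes under 67 symbols, since Trim34a and Trim34b, and Trim60 and Trim61, shared a row, and Trim16 shared its row with Fbxw10. A mean of at least 10 normalised read counts was reached in both groups by 48 of the 65 genes, in the mutant-labelled group alone by 4 and in the control-labelled group alone by 1, which left 53 tested genes. The other 12 genes stayed under this level in both groups, and 5 of them, Trim31, Trim42, Trim43c, Trim50 and Trim52, had no read in any library.

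TRIM proteins are built from a RING domain, which in most members passes ubiquitin to a substrate, followed by B-boxes and a coiled coil through which they assemble. The C-terminus differs between members and sets what each binds: a PRYSPRY domain in most, and in others a PHD finger with a bromodomain, NHL repeats, or a COS box that contacts microtubules. Many PRYSPRY members act in innate immunity, where they bind viral components or place ubiquitin on RNA sensors and their adaptors, and a number of them are interferon-stimulated genes (ISGs).

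RNA was sequenced from 3 libraries labelled wild-type and 3 labelled Ht-PA-Cre; Adar1fl/fl;R26R, each from a different animal and all from sciatic nerve of postnatal day 4. In the mutants, Cre is driven by the human tissue plasminogen promoter and recombines floxed Adar1, the gene of an enzyme that edits adenosine to inosine in double-stranded RNA, in neural crest (NC) cells, with R26R as a YFP tracer. Schwann cells (SCs) of the nerve derive from the NC, whereas endothelial cells, blood cells and muscle do not and keep the gene. The comparison addresses which genes change in the nerve when NC cells lose this enzyme. The labels give no further genotype for the controls.

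The libraries held 50938349 to 78250094 reads on genes, and 1 read was worth 0.727 to 1.27 normalised read counts. Adar itself stood at 1602, 2066 and 1133 normalised read counts in control-labelled libraries 1 to 3 and at 11768, 9311 and 9773 in mutant-labelled libraries 1 to 3, a log2 fold change of 2.72 (SE 0.20), so the transcript as counted rose where the label says the gene was deleted. The mean of Isg15, an ISG, was 60.8 times as high in the mutant-labelled as in the control-labelled libraries. The table gives 1 value per gene, so the recombined segment cannot be read apart from the rest of the transcript, and the groups are named by their labels throughout. In whole nerve, fewer cells of a type and less RNA per cell cannot be told apart.

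To show what lies at the start sites of the antiviral members, the promoter windows of RefSeq (GRCm38.p6), 250 bases before to 50 bases after each start, were searched for the core of the interferon-stimulated response element (ISRE), a pair of GAAA blocks with 2 bases between, on either strand. The stretches around the match are given below for 8 genes that were higher in the mutant-labelled libraries, 5′ to 3′ on the strand of the gene, with the match in capitals.
Trim21, chr7:102565433-102565504, minus strand: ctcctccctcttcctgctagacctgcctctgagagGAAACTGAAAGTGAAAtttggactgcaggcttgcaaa
Trim34a, chr7:104244432-104244506, plus strand: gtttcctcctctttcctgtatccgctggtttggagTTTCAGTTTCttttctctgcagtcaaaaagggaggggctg
Trim5, chr7:104288111-104288190, minus strand: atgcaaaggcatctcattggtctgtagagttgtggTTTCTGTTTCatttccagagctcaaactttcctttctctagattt
Trim12a, chr7:104315446-104315520, minus strand: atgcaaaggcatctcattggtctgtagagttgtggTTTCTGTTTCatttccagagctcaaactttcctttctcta
Trim12c, chr7:104353334-104353413, minus strand: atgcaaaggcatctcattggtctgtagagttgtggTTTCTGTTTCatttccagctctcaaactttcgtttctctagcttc
Trim30a, chr7:104465185-104465264, minus strand: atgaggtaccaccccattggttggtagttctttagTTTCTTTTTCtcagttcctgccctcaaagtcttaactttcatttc
Trim30d, chr7:104507846-104507925, minus strand: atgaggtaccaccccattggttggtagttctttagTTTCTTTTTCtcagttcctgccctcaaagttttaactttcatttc
Trim26, chr17:36836951-36837036, plus strand: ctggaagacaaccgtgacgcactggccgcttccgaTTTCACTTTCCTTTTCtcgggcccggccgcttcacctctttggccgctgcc
In Trim21 the capitals hold a pair of overlapping matches on the forward strand, which begin 13 and 19 bases after the start, and in Trim26 a pair on the reverse strand. The other stretches hold 1 match each, on the reverse strand, at positions between -49 in Trim5 and 10 in Trim12a and Trim34a. The whole promoter windows of Trim5 and Trim12a were the same over 241 of 241 aligned bases, those of Trim30a and Trim30d over 276 of 295 (93.6%), and those of Trim12a and Trim12c over 72.3% of 260. Trim30a has a second window with a match, at chr7:104446076-104446375.

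A promoter window was found for 41 of the 53 tested genes and for 9 of those under the minimum. The ISRE core was in 8 of the 21 promoters of Trim genes past the threshold (38.1%) and in 1 of the 20 of tested Trim genes not past it (5.0%), that of Trim2. The 8 are not independent. As given above, the windows of Trim5, Trim12a and Trim12c resemble each other, as do those of Trim30a and Trim30d, so these counts include near-copies. Over all tested genes with a window, it was in 173 of 2020 genes higher in the mutant-labelled libraries (8.56%), in 28 of 1125 lower ones (2.49%) and in 281 of 9454 others (2.97%), and over all RefSeq windows in 1131 of 32851 (3.44%). A STAT site, TTCNNNGAA, which reads the same on both strands, was in the promoters of Trim38, Trim46 and Trim45 among the tested Trim genes, 3 of 41 (7.32%), and in 8.30% of all windows. The windows of Trim66, Trim25, Trim30b, Trim6, Trim56 and Trim69 held no ISRE core, which says only that these letters were absent there, and Trim14 had no window to search. A match is a description of the sequence and no binding was measured.

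Of the 53 tested Trim genes, 22 were higher in the mutant-labelled libraries and 0 were lower by limma's moderated test, at the limits the study set for its own test, an unadjusted p of at most 0.05 and a change of at least 2-fold. Over all 25802 genes tested, 24.2% passed these limits, 13.9% being higher and 10.4% lower. With the Benjamini-Hochberg adjusted p in place of the unadjusted one, 20 of the 53 Trim genes were higher, against 11.5% of all tested genes that were higher and 19.9% that passed in either direction. The median log2 fold change of the tested Trim genes was 0.64 and that of all tested genes 0.03, and 42 of the 53 Trim genes had a positive value. Lower Trim genes numbered 0 in edgeR and DESeq2 too. With no limit on size, 28 Trim genes were higher and 4, Trim13, Trim37, Trim41 and Trim62, were lower at an unadjusted p of at most 0.05 in limma, as were 24.2% and 20.8% of all tested genes. At an adjusted p of at most 0.05 with no limit on size, which 35% of all genes passed, 24 were higher and 3 were lower.

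The values of the groups did not overlap for 34 of the 53 Trim genes, 30 with every mutant-labelled library above every control-labelled one and 4 with every one below, whereas 49.2% of all tested genes did not overlap. Trim38 was the only one of the 22 genes whose groups overlapped.

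**Figure D1:**
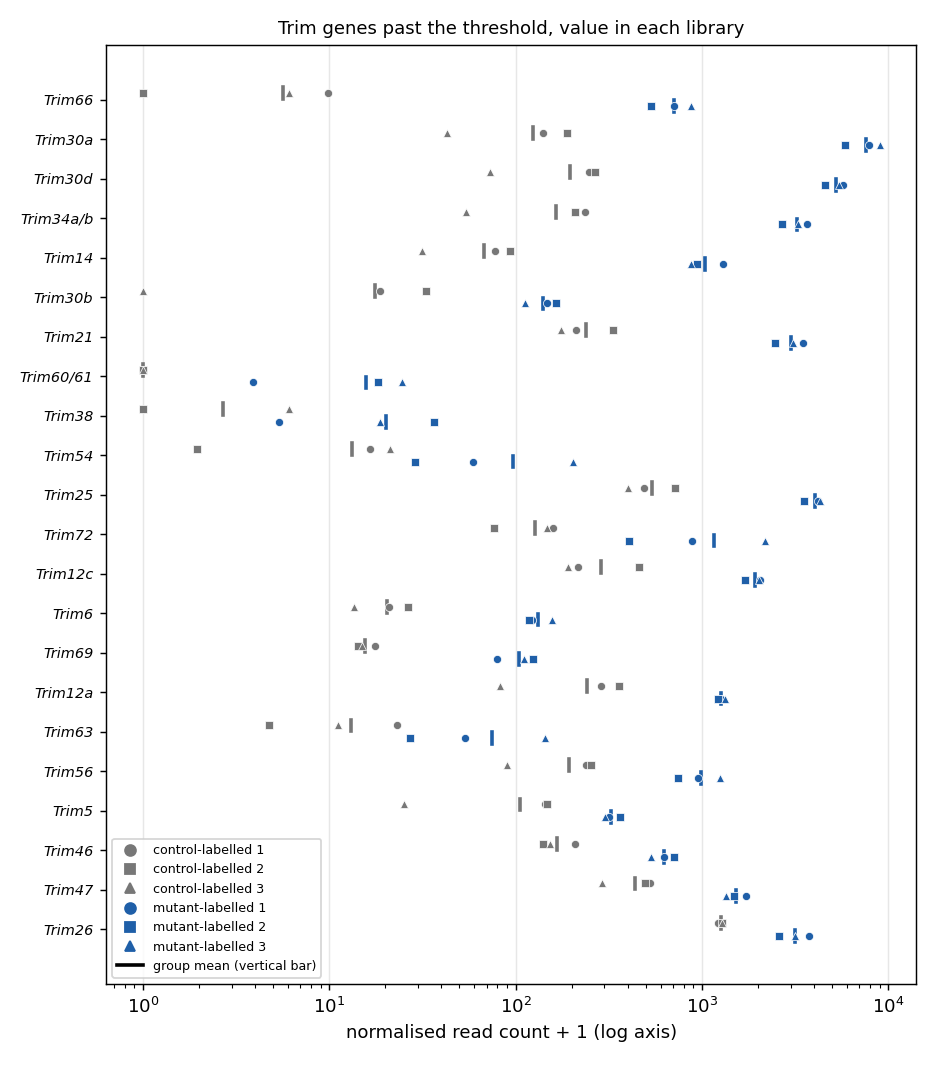
Normalised read counts, plus 1 and on a log axis, of the 22 Trim genes past the threshold, 1 gene a row; grey symbols are control-labelled and blue symbols mutant-labelled libraries, the shape gives the library and the vertical bar the group mean. The blue symbols lie to the right of the grey ones in every row but that of Trim38, and the lowest grey symbol is often the triangle of control-labelled library 3.

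The 22 genes are set out here by functional and structural group. The lists were chosen with earlier results of these data known, and differences between groups were not tested. Over all tested genes 13.9% were higher. Of the 15 genes listed here as antiviral or RNA-sensing, 14 were higher, 13 of them with an adjusted p of at most 0.05. The median log2 fold change of the 15 was 2.94. Of the 38 other tested Trim genes 8 were higher, with a median of 0.38. By structure, 17 of 29 PRYSPRY genes were higher, with a median of 2.01, and 4 of the 15 PRYSPRY genes outside the antiviral list were. The COS genes with a fibronectin domain gave 1 of 4, the muscle RING finger genes 2 of 3 and the PHD and bromodomain genes 1 of 4. The NHL genes gave 0 of 3 (0 also at an unadjusted p of at most 0.05 of any size in limma, edgeR and DESeq2). The genes with another or no named C-terminal domain gave 1 of 9. With 3 to 9 genes each, these groups are too small for their counts to be set apart from the share of 13.9%.

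**Figure D2:**
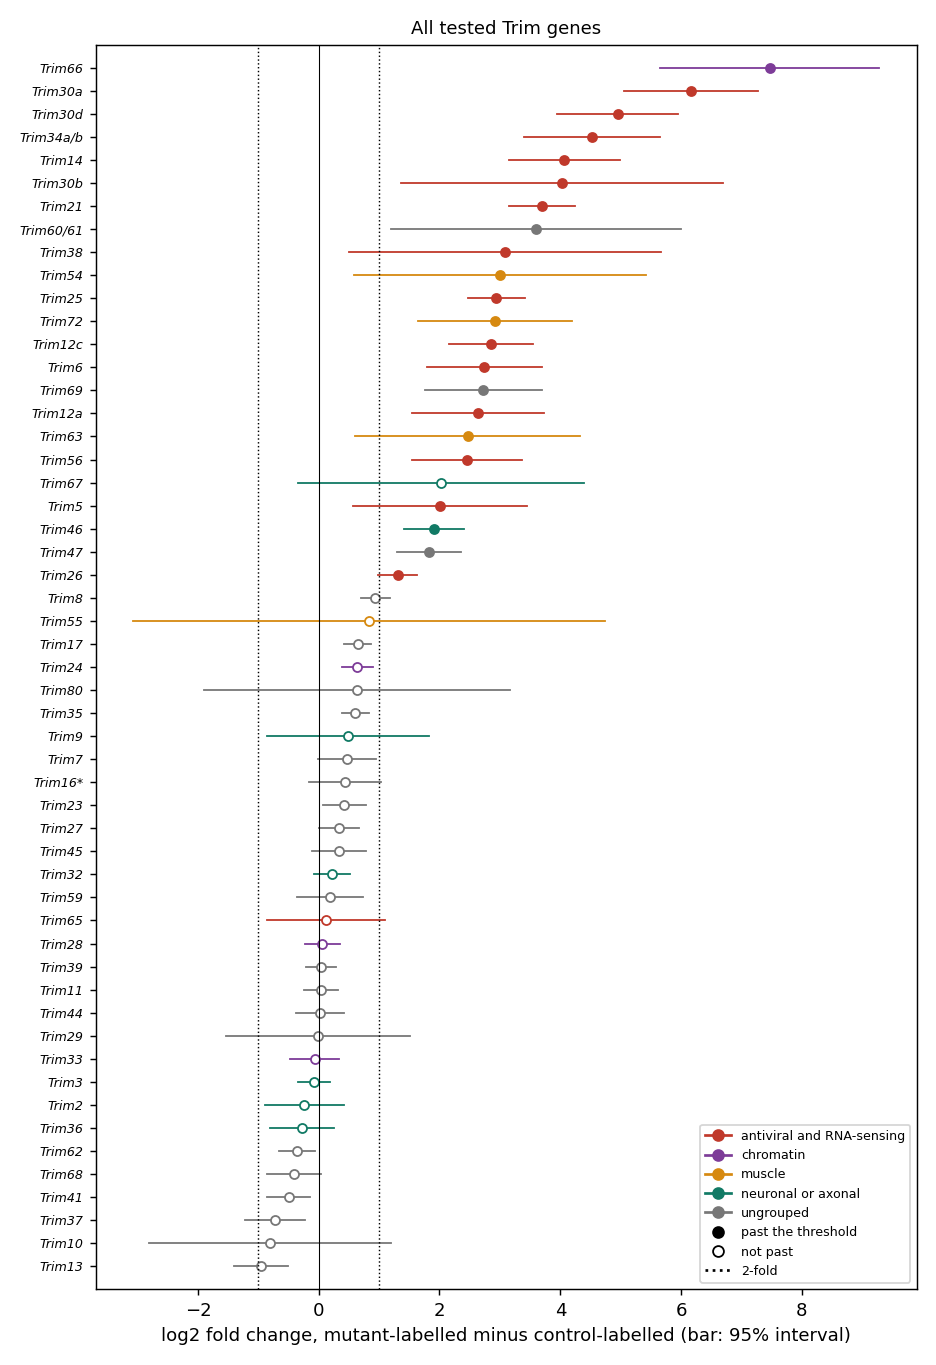
Log2 fold change, mutant-labelled minus control-labelled, with its 95% interval for the 53 tested Trim genes in order of size, coloured by functional group; filled circles passed the threshold and the dotted lines mark 2-fold. The antiviral genes in red lie between Trim30a at 6.16 and Trim26 at 1.31, among genes of the other groups and below Trim66 at 7.47, with Trim65 at 0.12 as the exception.

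The largest antiviral change was that of Trim30a (chr7:104409025-104465161, mm10, minus strand), whose product restrains NF-κB signalling by degrading TAB proteins. It stood at 139, 188.04 and 41.8 normalised read counts in control-labelled libraries 1 to 3 and at 7891, 5872 and 8990 in mutant-labelled libraries 1 to 3. Its lowest mutant-labelled value lay far above its highest control-labelled one, and the log2 fold change was 6.16 (SE 0.48, adjusted p = 4.78e-05). Trim30d, its neighbour with the near-identical promoter, had 245, 266 and 72.2 in the control-labelled and 5707, 4590 and 5461 in the mutant-labelled libraries, with a log2 fold change of 4.95 (SE 0.44, adjusted p = 8.58e-05). Both genes were thus lowest in control-labelled library 3. Trim30b had 17.8, 32.1 and 0 normalised read counts in the control-labelled and 147, 163 and 111 in the mutant-labelled ones, and its log2 fold change of 4.03 (SE 1.16, adjusted p = 0.0275) fell to 2.48 without control-labelled library 3 and rose to 5.01 without control-labelled library 2. It was 3.04 in edgeR and 3.06 in DESeq2.

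The row of Trim34a and Trim34b (chr7:104244455-104340682, plus strand) stood at 234, 207 and 53.2 in the control-labelled and at 3678, 2695 and 3287 in the mutant-labelled ones, for a log2 fold change of 4.53 (SE 0.49, adjusted p = 0.000258). These genes are relatives of Trim5, whose human counterpart binds retroviral capsids. The row spans Trim5, Trim12a and part of Trim12c on the opposite strand. The libraries were strand-oriented, but whether reads were then counted by strand is not given in the sources used here, so reads of these genes cannot be told apart with certainty. Trim12c rose from 287.6 ± 148 to 1922 ± 181 (SD, n = 3), with a log2 fold change of 2.85 (SE 0.30, adjusted p = 0.000235). Trim12a rose from 242 ± 144 to 1270 ± 55.02, with a log2 fold change of 2.64 (SE 0.48, adjusted p = 0.00348), and Trim5 from 105 ± 69.7 to 326 ± 31.4, with one of 2.01 (SE 0.63, adjusted p = 0.037). The value of Trim5 was 1.16 without control-labelled library 3, where it was at 24.1 against 142 and 147 in the other control-labelled libraries, and that of Trim12a was 1.98. Trim6, whose product makes free ubiquitin chains that act on IKKε, rose from 19.4 ± 6.44 to 132 ± 20.5 (log2 fold change 2.74, SE 0.42, adjusted p = 0.00142).

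These 8 rows lie together on chromosome 7 in mm10, at chr7:104218792-104507851, and all 8 were higher, with a median log2 fold change of 3.44. The stretch of 289 kb held 8 other genes in the table, of which 6 were tested and 5 were higher, 2 of the 5 having reached the minimum mean only through the mutant-labelled group. The only named one was Gm15133, inside the row of Trim34a and Trim34b, with 1.48 ± 2.56 against 32.5 normalised read counts and a log2 fold change of 4.11. The others had no symbol. Inside Trim30d, a tested unnamed gene at chr7:104476701-104479270 had a log2 fold change of 3.75 (SE 0.58, adjusted p = 0.0015). Another, at chr7:104501850-104501879, had one of -0.10. Of the 14 Trim rows on chromosome 7, all tested, 11 were higher. Of the 11 on chromosome 11, 10 were tested and 2, Trim25 and Trim47, were higher, beside 13.9% of all tested genes. Windows of 130 bases, the read length, were shared between transcripts for 4.01% of Trim30a, with Trim30d, and for 6.47% of Trim5, with Trim12a, Trim12c and Gm4992. The shares were 13.3% of Trim34a and 19.3% of Trim34b, with each other, and 0 for Trim30b and Trim6.

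**Figure D3:**
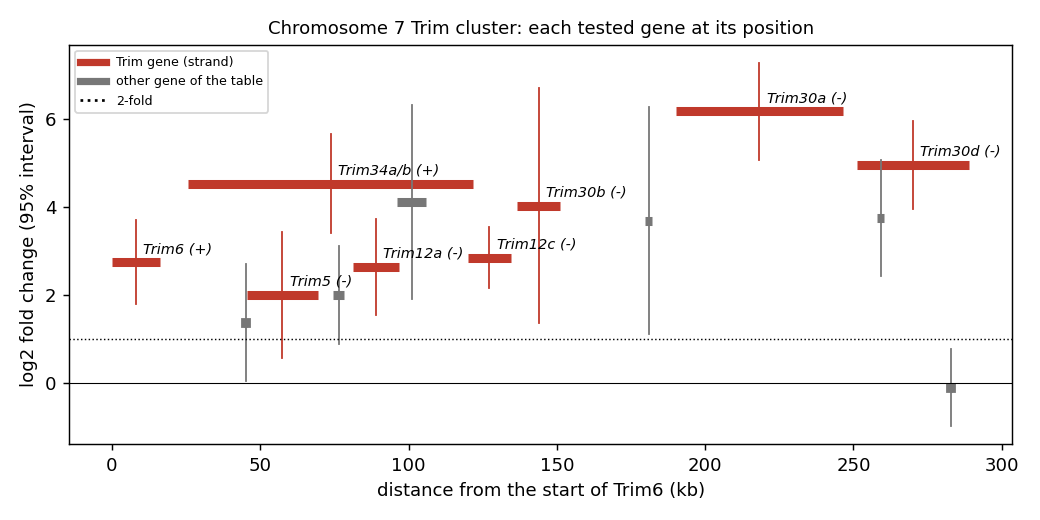
Log2 fold change with its 95% interval of the tested genes of the chromosome 7 cluster, each drawn as a bar over its extent in kb from the start of Trim6; red bars are Trim genes with their strand and grey bars other genes. All 8 red bars lie above the dotted 2-fold line, between 2.01 and 6.16, and 1 grey bar lies near 0.

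Antiviral Trim genes outside the cluster also rose. Trim25, the ligase that places ubiquitin chains on RIG-I, stood at 491, 717 and 402 normalised read counts in the control-labelled and at 4217, 3518 and 4322 in the mutant-labelled libraries. Its log2 fold change was 2.94 (SE 0.21, adjusted p = 2.9e-05), and it is on chromosome 11 (chr11:88999402-89020293, plus strand). Trim21 (chr7:102557920-102565482, minus strand), an intracellular antibody receptor that directs antibody-coated particles to the proteasome, had 209.9, 331 and 175 in the control-labelled and 3481, 2481 and 3095 in the mutant-labelled libraries. With a log2 fold change of 3.70 (SE 0.24, adjusted p = 2.05e-05), it had the smallest adjusted p of the family. Trim14 (chr4:46493781-46536146, minus strand), an adaptor at the MAVS complex, had 76.6, 92.6 and 30.4 in the control-labelled and 1303, 946 and 868 in the mutant-labelled ones, for a log2 fold change of 4.07 (SE 0.40, adjusted p = 0.000153).

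Trim56, which takes part in responses to viral nucleic acids, rose from 194 ± 91.1 to 984 ± 255 (log2 fold change 2.45, SE 0.40, adjusted p = 0.00194). Trim26, a ligase of the interferon pathway, was the antiviral gene nearest the 2-fold limit. It was at 1226, 1284 and 1276 in the control-labelled and at 3744, 2604 and 3146 in the mutant-labelled ones, for a log2 fold change of 1.31 (SE 0.14, adjusted p = 0.000235). The 3 control-labelled libraries were within a few percent of each other, unlike those of the cluster.

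Trim38 and Trim65 were the exceptions in the antiviral list. Trim38, known to limit Toll-like receptor signalling, had 0, 0 and 5.07 normalised read counts in the control-labelled and 4.36, 35.7 and 17.8 in the mutant-labelled libraries, so the groups overlapped. Its log2 fold change of 3.08 (SE 1.13) had an unadjusted p of 0.0248 and an adjusted p of 0.0652 in limma, and it no longer passed in edgeR or when control-labelled library 1 or 2 or mutant-labelled library 2 or 3 was left out (2.46 to 2.94). Trim65, which activates the RNA sensor MDA5, was at 67.5 ± 23.4 and 72.1 ± 23.7, with a log2 fold change of 0.12 and a 95% interval from -0.86 to 1.09, and its sign changed when control-labelled or mutant-labelled library 2 was left out.

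Markers of some other cells moved beside the antiviral genes. The summed level of 7 macrophage markers, all above 0 in every library, was 10932 to 14659 in the control-labelled and 4556 to 6501 in the mutant-labelled libraries. Of the 7, 4 were lower, 1, Aif1, was higher and 2, Cd68 and Adgre1, did not pass. Over all tested genes 10.4% were lower and 13.9% higher. The sum of 6 fibroblast and perineurial markers, all above 0, was 1779030 to 2108020 and 719641 to 1062400. Of the 6, 2 were lower, 4 did not pass and 3 had overlapping groups, and their median log2 fold change was -0.35. The sum of 5 T and NK cell markers was 17.7 to 34.96 in the control-labelled and 196 to 453 in the mutant-labelled libraries. Of the 5, 3, Cd8a, Nkg7 and Gzmb, were higher by the same limits. Cd8a and Gzmb had no read in any control-labelled library and Nkg7 none in 1 of them, and all 3 reached the minimum mean only through the mutant-labelled group, so they had to differ to be tested. Of 5 endothelial, 4 B cell and 3 tested neutrophil markers, 0 passed the limits in limma or edgeR, and 1 neutrophil marker passed in DESeq2. At an unadjusted p of at most 0.05 of any size in limma, 2 endothelial markers were higher, and 0 of the B cell and neutrophil ones changed. The part of other cells in the rise of the antiviral Trim genes was not tested.

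The control-labelled libraries differed among themselves in these genes. Of the 15 antiviral Trim genes, 12 were lowest, among control-labelled libraries, in library 3, and 12 were highest in library 2, which was the highest for 7859 of the 25802 tested genes. All 8 cluster rows were lowest in control-labelled library 3. Over all tested genes, library 3 was the lowest of the control-labelled libraries for 31.4%, and of the 38 other Trim genes 12 were lowest there. In the cluster, Trim5 was 5.90 times, Trim12a 3.52 times, Trim6 1.58 times and Trim12c 1.13 times as high in library 1 as in library 3. Outside it, Trim56 was 2.68 times, Trim14 2.52 times, Trim25 1.22 times, Trim21 1.20 times and Trim26 0.961 times as high. Among the mutant-labelled libraries, 10 of the 15 antiviral genes were lowest in library 2, as were 17 of the 38 other Trim genes and 9472 of the 25802 tested genes.

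**Figure D4:**
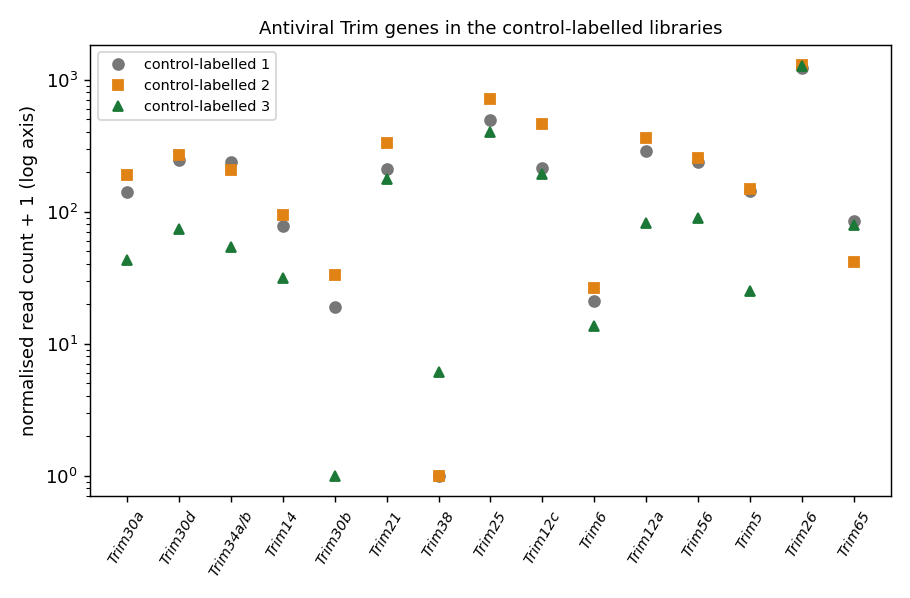
Normalised read counts, plus 1 and on a log axis, of the 15 antiviral Trim genes in the 3 control-labelled libraries. The green triangles of library 3 are the lowest symbols for 12 of the 15 genes, and the orange squares of library 2 are the highest for 12; the symbols of libraries 1 and 2 coincide at 0 counts for Trim38.

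The chromatin members share a PHD finger and a bromodomain, and only Trim66 among them passed the threshold. Trim66 (chr7:109449001-109508134, minus strand), which binds heterochromatin protein HP1 and is best known from testis, had 8.88, 0 and 5.07 normalised read counts in the control-labelled and 711, 530 and 874 in the mutant-labelled libraries. The gene was near the detection limit in every control-labelled library, and its log2 fold change of 7.47 (SE 0.79, adjusted p = 0.000228) was the largest of the family at a pseudocount of 1. With a pseudocount of 10 it was 5.63, below the 6.02 of Trim30a. The value was 6.48 without control-labelled library 2 and 8.13 without control-labelled library 1, and 8.69 with a pseudocount of 0.1. It lies on chromosome 7 but outside the cluster, with an unnamed gene on the opposite strand.

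Trim24, a nuclear receptor cofactor, rose by less than 2-fold, from 3503 ± 31.6 to 5488 ± 721 (log2 fold change 0.64, SE 0.11, adjusted p = 0.00304). Trim28, the corepressor that silences retroelements with Setdb1, was at 21880 ± 2232 and 22833 ± 3172 normalised read counts. Its log2 fold change was 0.06 with a 95% interval from -0.23 to 0.35, so a change of 2-fold lay outside the interval. Trim33, which acts on SMAD signalling, had a log2 fold change of -0.06 (95% interval -0.47 to 0.34). The signs of the last pair of values changed under alternatives. Of 6 genes that work with these proteins, Cbx1, Cbx3, Cbx5, Setdb1, Smad4 and Atrx, 0 passed the 2-fold limit in limma, edgeR or DESeq2, with a median log2 fold change of 0.24. At an unadjusted p of at most 0.05 with no limit on size, 2 were higher and 1, Cbx3 at -0.42, was lower, against 24.2% and 20.8% of all tested genes.

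Of the 4 muscle members 3 were higher, beside 13.9% of all tested genes. Trim72, which seals membrane wounds in muscle fibres, had 158, 75.6 and 147 normalised read counts in the control-labelled and 880, 406 and 2175 in the mutant-labelled ones, for a log2 fold change of 2.92 (SE 0.56, adjusted p = 0.00448). Trim54, a muscle RING finger protein of microtubules and sarcomeres, had 15.5, 0.945 and 20.3 in the control-labelled and 58.2, 27.98 and 202 in the mutant-labelled libraries. Its log2 fold change of 3.0 (SE 1.06, adjusted p = 0.057) no longer passed without control-labelled library 2 (1.91), without mutant-labelled library 3 (2.23) or with a variance prior without trend. Trim63, the ligase of muscle atrophy, had 22.2, 3.78 and 10.1 in the control-labelled and 52.4, 26.1 and 143 in the mutant-labelled ones, and its log2 fold change of 2.47 (SE 0.81, adjusted p = 0.0455) no longer passed without mutant-labelled library 3 (1.82).

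Trim55, the third muscle RING finger gene, had 31.1, 5.67 and 6.34 in the control-labelled and 59.6, 0 and 145 in the mutant-labelled libraries. The groups overlapped, and the log2 fold change of 0.83 (SE 1.70, adjusted p = 0.736) was 3.02, past the threshold, without mutant-labelled library 2 and -0.58 without mutant-labelled library 3. The value for Trim55 was 2.25 in edgeR, -0.14 with a pseudocount of 0.1 and 1.12 with one of 10, and none of these passed.

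A sum of 12 skeletal muscle markers, Acta1, Ckm and Ttn among them, all above 0 in every library, was 42060, 8978 and 33053 in control-labelled libraries 1 to 3 and 119296, 55342 and 395558 in mutant-labelled libraries 1 to 3. Of the 12 markers 11 were higher by the same limits, with a median log2 fold change of 2.53, beside a median of 2.69 for the 4 muscle Trim genes. All 4 Trim genes and all 12 markers were lowest in control-labelled library 2 among the control-labelled, and lowest in library 2 and highest in library 3 among the mutant-labelled libraries. The part of muscle content in the change of these genes was not tested.

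**Figure D5:**
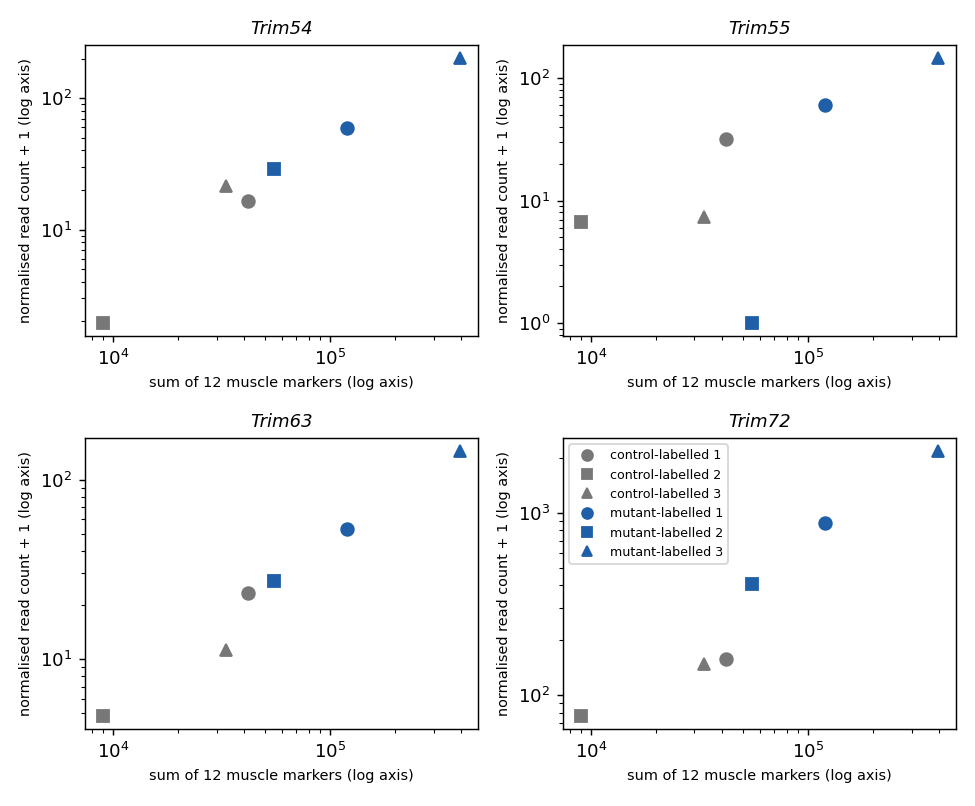
Normalised read count, plus 1, of the 4 muscle Trim genes against the summed level of 12 skeletal muscle markers, both on log axes, 1 symbol a library, grey for control-labelled and blue for mutant-labelled. Mutant-labelled library 3, with the highest marker sum of 395558, has the highest value in every panel, and Trim55 was at 0 in mutant-labelled library 2.

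Of the neuronal members, Trim46, which bundles microtubules of the axon initial segment, was the only one past the threshold. It had 208.8, 140 and 152 normalised read counts in the control-labelled and 627, 711 and 535 in the mutant-labelled ones, for a log2 fold change of 1.91 (SE 0.22, adjusted p = 0.000338). Its row overlaps that of Il6ra on the same strand. Trim67, a relative of the netrin pathway ligase Trim9, had 0, 12.3 and 7.60 in the control-labelled and 16.7, 25.1 and 15.8 in the mutant-labelled libraries. The groups did not overlap, but the log2 fold change of 2.03 (SE 1.03, adjusted p = 0.163) did not pass, except without control-labelled library 2 (2.76), and the value was 0.89 without control-labelled library 1.

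For the other 5 neuronal genes the groups overlapped. The log2 fold changes were 0.49 for Trim9, 0.23 for Trim32, -0.08 for Trim3, -0.24 for Trim2, a ligase of neurofilament light chain, and -0.27 for Trim36. The 95% intervals of Trim32, Trim3, Trim2 and Trim36 lay within 2-fold, and that of Trim9 reached 1.83. The signs of Trim3 and Trim2 changed under alternatives. The summed level of 5 neuron markers, of which Rbfox3 was at 0 in a library, was 2464 to 3101 in the control-labelled and 5030 to 6025 in the mutant-labelled ones. Of the 5, 3 were higher, beside 13.9% of all tested genes.

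Of the 23 tested genes in none of these groups 3 were higher, beside 13.9% of all tested genes, and 20 did not pass. Trim47, a ligase with a PRYSPRY domain, had 523, 495 and 290.2 in the control-labelled and 1725, 1477 and 1341 in the mutant-labelled ones, for a log2 fold change of 1.83 (SE 0.23, adjusted p = 0.000559). Trim69, a protein of the spindle poles, rose from 14.6 ± 1.81 to 104 ± 22.6 (log2 fold change 2.73, SE 0.42, adjusted p = 0.00155). The row of Trim60 and Trim61 had no read in the control-labelled libraries and 2.91, 17.4 and 23.7 normalised read counts in the mutant-labelled libraries. Against a floor of 3 reads per library it was at least 4.42-fold higher, with an adjusted p of 0.0285. Like Trim66 and Trim38, it reached the minimum mean only through the mutant-labelled group, where it was high, so these 3 of the 22 genes had to differ to be tested at all.

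A rise below 2-fold with an adjusted p of at most 0.05 was found for Trim8, Trim17, Trim35 and, as given above, Trim24. Trim8, which promotes NF-κB signalling by ubiquitin on TAK1, had 7398, 8824 and 8673 in the control-labelled and 17260, 14432 and 16070 in the mutant-labelled libraries. Its log2 fold change of 0.94 (SE 0.11, adjusted p = 0.000321) was just under the limit and passed without mutant-labelled library 2 (1.01) and when totals were made equal (1.10). Trim17 and Trim35 had log2 fold changes of 0.64 and 0.61, and for both every mutant-labelled library was above every control-labelled one.

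A fall with an adjusted p of at most 0.05 was found for Trim13, Trim37 and Trim41, all below 2-fold. Trim13, which is anchored in the endoplasmic reticulum and takes part in protein degradation there, had 4733, 5785 and 5675 normalised read counts in the control-labelled and 2961, 2020 and 3574 in the mutant-labelled libraries. Its log2 fold change was -0.95 (SE 0.20, adjusted p = 0.00644). It passed as lower when the upper quartiles were made equal (-1.07) and when control-labelled library 1, mutant-labelled library 1 or mutant-labelled library 3 was left out (-1.05, -1.0 and -1.14). Trim37, a ligase of centrosome assembly, had a log2 fold change of -0.73 (SE 0.22, adjusted p = 0.0313), and Trim41 one of -0.50 (SE 0.16, adjusted p = 0.0375).

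For 20 of the 31 tested Trim genes not past the threshold, the 95% interval of the log2 fold change lay within 2-fold in both directions. The other 11 had an interval that reached beyond 2-fold. Among them were Trim10, Trim29 and Trim80, with means of 8.21 to 33.2 normalised read counts. Trim8, Trim13 and Trim37 were among them too, with group means of 724 to 15920. Trim10, a gene of red blood cell formation, was at 14.7 ± 8.32 and 8.21 ± 5.23 with overlapping groups, beside a summed level of 5 erythroid markers of 26029 to 35269 in the control-labelled and 2243 to 7008 in the mutant-labelled libraries.

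Of the 12 Trim genes under the minimum, Trim71, an RNA-binding NHL protein of stem cells, had no read in the control-labelled libraries and 13.1, 7.72 and 5.93 normalised read counts in the mutant-labelled libraries. It was not tested, and no gene had reads in all control-labelled libraries and in none of the mutant-labelled ones. The other 6 with a read somewhere were Trim15, Trim40, Trim43a, Trim43b, Trim58 and Trim75.

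Genes that act with the antiviral members were read from a list of 20 sensors, adaptors and transcription factors of the RNA sensing and interferon pathways. Of these, 10 were higher and 0 lower by the limits in limma, edgeR and DESeq2 alike, with a median log2 fold change of 1.83. By these limits 13.9% of all tested genes were higher and 10.4% lower in limma. At an unadjusted p of at most 0.05 with no limit on size, 16 were higher and 1, Ifnar1, was lower, beside 24.2% and 20.8% of all tested genes. Ddx58, which encodes RIG-I, the substrate of TRIM25, was at 692 ± 320 and 13719 ± 1834, a log2 fold change of 4.42 (SE 0.33). Ifih1, the gene of MDA5, was at 559 ± 331 and 25700 ± 3356, with 5.69 (SE 0.38). The transcription factor Irf7 had 492, 1947 and 204 normalised read counts in the control-labelled and 99343, 70931 and 75697 in the mutant-labelled ones, and was lowest in control-labelled library 3 as were 14 of the 20 genes.

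Several genes of the same pathway did not pass. The log2 fold changes were -0.20 for Mavs, the adaptor of both sensors, 0.11 for Irf3, 0.04 for Traf6 and 0.50 for Tab2, a substrate of Trim30a and Trim38. The receptor genes Ifnar1 and Ifnar2 had -0.38 and 0.75. Rnf135, a RING ligase of RIG-I outside the TRIM family, rose with a log2 fold change of 2.67 (SE 0.16).

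Of 8 genes of TRIM or related proteins with other symbols, 2 were higher in limma, where 13.9% of all tested genes were, 3 in edgeR and 4 in DESeq2. Pml, which builds nuclear bodies, rose from 225 ± 63.4 to 1289 ± 228 (log2 fold change 2.54, SE 0.25, adjusted p = 0.000141). Fsd2, a gene of striated muscle, had 17.8, 0 and 20.3 in the control-labelled and 66.2, 48.2 and 234 in the mutant-labelled libraries (log2 fold change 3.64, SE 1.20, adjusted p = 0.0448), and like the muscle Trim genes was lowest in control-labelled library 2 and in mutant-labelled library 2 and highest in mutant-labelled library 3. Mid1, Mid2, Mefv, Cmya5, Fsd1 and Bspry did not pass in limma, at log2 fold changes of 0.15 to 2.96, and the groups overlapped for the first 4 of them.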

How the data were processed

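RNA was read from sciatic nerves of 3 control and 3 mutant mice. Per the labels and the study's methods, poly-A libraries were sequenced as paired ends of 130 bases, aligned to mm10 with STAR 2.4.0 and counted on constitutive regions of genes. The deposited signal is the read count of a gene divided by a DESeq size factor; 100% of the values of each library were whole multiples of 1 read within 0.001.

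log2(value + 1) was compared, mutant minus control, with limma 3.58.1 (lmFit, eBayes with trend; R 4.3.3) over the 25802 genes with a mean of at least 10 in at least 1 group, without a replicate block. A call needed p of at most 0.05 and 2-fold, and adjusted p values are Benjamini-Hochberg over all tested genes. Fold changes are on the log2(value + 1) scale, where those of low genes depend on the pseudocount in either direction. edgeR 4.0.16 and DESeq2 1.42.0 were run on the recovered reads as alternatives, beside other pseudocounts, filters, scalings and each library left out. Scripts were tested on simulated data.

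Every Trim gene past the threshold is named, as are the other antiviral, chromatin, muscle and neuronal ones, and the rest are given by count or named after their values were seen. The family, its groups and the lists were chosen with earlier results of these data known. Protein sequences were not used here, and a Schwann cell marker sum is not reported here.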

Additional observations from a re-analysis of the deposited data

How the results depend on the processing

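The number of Trim genes past the threshold and higher, 22, ranged from 20 to 24 over all alternatives and from 20 to 23 with 1 library left out; it was 21 in edgeR and 22 in DESeq2. The number lower, 0, was 3 with an adjusted p of any size, 1 with equal 75th percentiles, and 0 to 1 with 1 library left out, Trim13 being that gene. Of the 22 called genes, 18 passed in all 17 alternatives and the row of Trim60 and Trim61 in the 16 that tested it, its mean being under 50, the exceptions being Trim38, Trim54 and Trim63. The cause of the changes was not tested. Equal totals moved the median of all genes from 0.03 to 0.19 and equal 75th percentiles moved it to -0.08.

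Leaving out control-labelled library 3 lowered the log2 fold change of Trim30a to 5.52, Trim30d to 4.35 and the Trim34a and Trim34b row to 3.85, while Trim72 was 2.30 without mutant-labelled library 3 and 3.51 without mutant-labelled library 2. Trim60 and Trim61 reached 4.41 without mutant-labelled library 1. Trim38 reached 3.95 without control-labelled library 3 and 3.85 without mutant-labelled library 1. With pseudocounts of 0.1 and 10, Trim30b was 5.17 and 2.71, Trim38 5.25 and 1.20, and Trim67 3.16 and 0.88. Trim54 was 3.32 and 2.01, Trim63 2.60 and 1.76, and the row of Trim60 and Trim61 6.75 and 1.19. Trim54 reached 3.64 without mutant-labelled library 2 and was also higher without control-labelled library 3.

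Replicate numbers did not pair the libraries: deviations from the group means correlated at -0.062, -0.055 and 0.0089 for equal numbers, and not every library correlated best with its own number. With a replicate block, 22 Trim genes were higher and 0 lower. With 3 libraries a group, an exact permutation test of 1 gene cannot go below p = 0.10.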
